A study of Saccharomyces cerevisiae with 10 samples.

Results

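The comparison is between yeast that carries the WY7 form of MED15 and yeast that carries the WY23 form, both fermenting grape juice. Its members are the 2 WY7 and 2 WY23 libraries, 4 of the 10 libraries of the series, taken by the genotype that the labels give. Both strains are in the laboratory background S288C and by their labels differ in the MED15 allele. The remaining libraries are 2 each of the wild-type strain (LAB), of another allele (WY15) and of a med15 deletion. Each library is polyadenylated RNA from its own fermentation of supplemented white grape juice in 5 mL, with cells collected when the weight loss had reached 35%. Strains with a MED15 allele reached it at about 37 h, and the deletion at 48 h. How many independently built strains stand behind an allele is not given in the sources used here, so with 2 fermentations of each allele the tests measure the spread between fermentations. The series sets out to compare alleles of MED15 for their effect on transcription during fermentation, and the question of the present comparison is whether WY7 and WY23 give different messenger RNA levels.

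Med15 is a subunit of the tail of Mediator, the large complex that carries signals from DNA-bound activators to RNA polymerase II. Its activator-binding domains are touched by factors such as Gcn4, which turns on amino acid synthesis, and Msn2 and Msn4, which turn on stress genes, and its glutamine-rich stretches vary in length between yeast isolates. During wine fermentation yeast consumes sugar to ethanol at low oxygen while nitrogen runs short, and it adjusts genes of sugar transport, amino acid supply, storage carbohydrate and stress as the must changes.

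The 4 libraries held 22.7 and 23.1 M reads for WY7 and 25.3 and 26.9 M for WY23, against 22.7 to 29.3 M in the whole series. Both WY7 libraries had fewer reads than every library of the other strains. Values are given as normalized counts, that is reads of a gene divided by 1 size factor per library, and 6065 genes with a mean of at least 10 over the 10 libraries were tested. Differences are of log2(value + 1), WY7 minus WY23, with the standard error (SE) of a limma fit to all 10 libraries. Among mating-type markers, the alpha-factor gene MF(ALPHA)1 was at 41384 and 47503 in WY7 and 51045 and 56560 in WY23, the minor alpha-factor gene MF(ALPHA)2 at 176 and 221 in WY7 and 207 and 261 in WY23, and the alpha-cell receptor gene STE3 at 2393 and 2752 in WY7 and 2922 and 2915 in WY23. Genes of a cells were also read: the receptor gene STE2 was at 654 and 604 in WY7 and 567 and 540 in WY23, the pheromone gene MFA1 at 148 and 91.9 in WY7 and 137 and 163 in WY23, MFA2 at 65.4 and 65.1 in WY7 and 66.3 and 76.1 in WY23, and the protease gene BAR1 at 94.3 and 86.8 in WY7 and 98.4 and 76.1 in WY23. The marker genes URA3, LEU2 and LYS2 had no reads in the 4 libraries. HIS3, also listed as a marker, was read in all 4, with values given further on.

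MED15 messenger RNA itself, on chromosome XV at 234940 to 238185 of build R64 on the plus strand, was at 9497 and 8837 in WY7 and 10571 and 10958 in WY23. Both WY7 libraries lay below both WY23 libraries. LAB was at 8238 and 8844, WY15 at 8521 and 8797, and the deletion at 12.1 and 11.9. The log2 difference was -0.23 (SE 0.08), with an unadjusted p of 0.0205 and an adjusted p of 0.859 in limma, so it did not pass. Among the other tail subunits, MED2 was at 9349.9 and 6568 in WY7 and 6451 and 6184 in WY23, a log2 difference of 0.31. The 6 tail subunits had differences from -0.23 to 0.31, and the 4 of the kinase module from -0.14 to 0.22. None of these passed.

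No gene passed the test between WY7 and WY23 at an adjusted p under 0.05 in limma, in either direction (0% of the genes tested higher and 0% lower). At an unadjusted p under 0.05 there were 157 genes higher in WY7 (2.59%) and 163 lower (2.69%). The lowest adjusted p was 0.859. edgeR's quasi-likelihood test on the recovered reads called 0 genes, with 327 at an unadjusted p under 0.05. DESeq2 on the same reads called 11 of 6481 genes (0.17%) and had 374 at an unadjusted p under 0.05. By level alone, 67 genes differed by more than 2-fold between the strain means, 50 of them higher in WY7 and 17 lower. Only 30 of the 67 had a mean of at least 50. Both WY7 libraries lay above both WY23 libraries for 1458 genes (24%) and below them for 1488 (24.5%). These 2 shares are the background for every count of separated genes given here. They depend on the scaling: with libraries set to equal sums they were 18.5 and 28.4%, and with quantile normalization 22.5 and 27.8%.

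The spread between fermentations of 1 allele was of the same order as the difference between the alleles. The median absolute log2 difference was 0.122 between the 2 WY7 libraries and 0.078 between the 2 WY23 libraries, the closest pair of the series. Between a WY7 and a WY23 library it was 0.132 and 0.144 for WY7 replicate 1, and 0.118 and 0.104 for WY7 replicate 2. The 2 WY7 libraries differed by more than 2-fold in 109 genes and the 2 WY23 libraries in 48. Between a WY7 and a WY23 library the number was 135 and 200 for WY7 replicate 1, and 76 and 65 for replicate 2. The 67 genes beyond 2-fold between the strain means are of averages of 2 libraries and are not on the same scale. WY7 replicate 1 differed from the WY23 mean by more than 2-fold in 161 genes and replicate 2 in 54. Values are therefore given for each library.

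**Figure D1:**
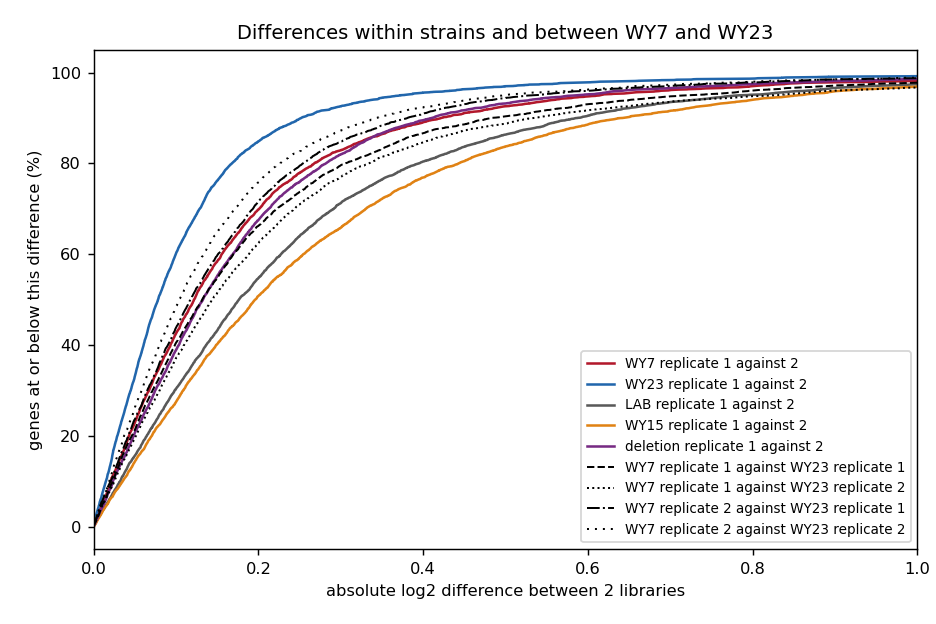
Share of the 6065 tested genes (vertical axis, percent) at or below a given absolute log2 difference between 2 libraries (horizontal axis). Solid lines are the 2 fermentations of 1 strain and broken black lines the 4 pairs of a WY7 with a WY23 library. The WY23 pair (median 0.078) lies to the left of all others, and the WY7 pair (median 0.122) lies among the 4 pairs of different alleles (medians 0.104 to 0.144).

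**Figure D2:**
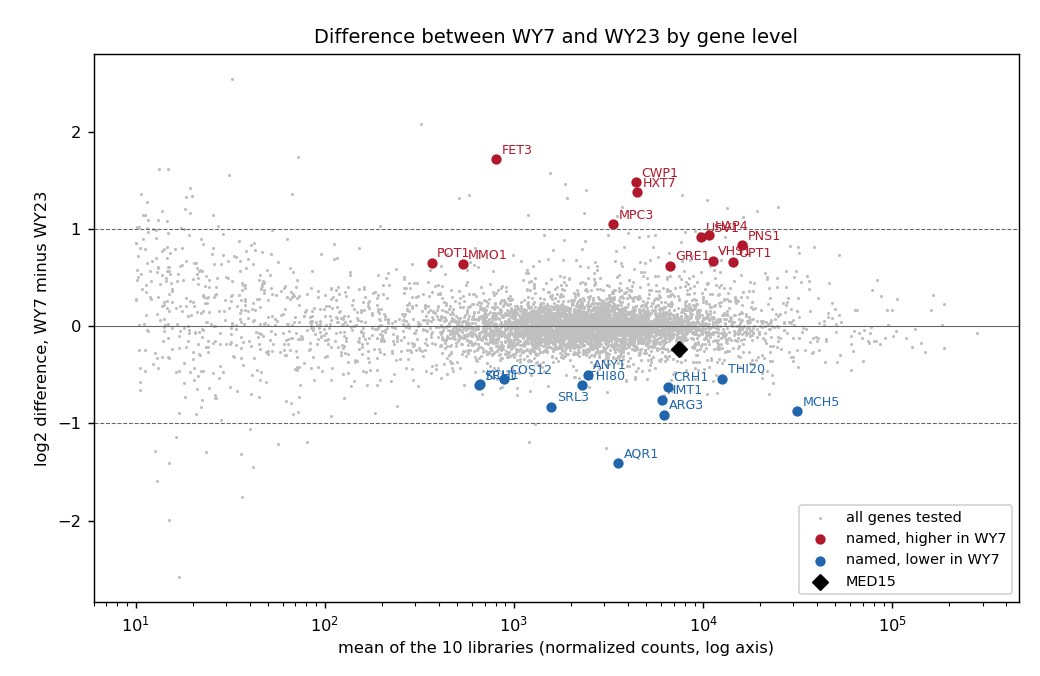
Mean of the 10 libraries (horizontal, log axis, normalized counts) and log2 difference WY7 minus WY23 (vertical) for the 6065 tested genes in grey. Red and blue points are the 12 named genes higher and the 12 lower in WY7, the black diamond is MED15, and the broken lines mark 2-fold. Most genes beyond 2-fold are above 0 and weakly expressed, and no point passed the limma test.

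Since none passed, the genes named next were ranked by unadjusted p. They had to carry a standard name, average 50 or more, have separated libraries and differ by a log2 of 0.5 or more in either direction. They describe where the 2 strains were farthest apart relative to the spread, and each had an adjusted p of 0.859 in limma. The 12 higher in WY7 had fitted ratios of 1.54 to 3.29 and unadjusted p from 0.00297 to 0.0108. The 12 lower in WY7 had WY23 above WY7 by 1.41 to 2.65-fold and unadjusted p from 0.000573 to 0.0103. In all 24, WY7 replicate 1 stood farther from the WY23 mean than replicate 2 did.

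Of the genes higher in WY7, USV1 had the lowest unadjusted p. USV1, a zinc-finger factor of genes used on nonfermentable carbon, was at 17536 and 11713 in WY7 and 7755 and 7447 in WY23. Both WY7 libraries were above both WY23 libraries, the log2 difference was 0.92 (SE 0.22), and DESeq2 called it at an adjusted p of 0.0326. HAP4, further down the ranking and the activating subunit of the Hap complex that drives respiratory genes, was at 18576 and 14294 in WY7 and 8265 and 8768 in WY23, a log2 difference of 0.94 (SE 0.26). The 2 WY23 libraries nearly coincide for both genes, and the 2 WY7 libraries lie well above them. LAB was at 11096 and 15137 for USV1 and 11123 and 20429.8 for HAP4, and WY15 at 7951 and 10107 and 8609.5 and 7637. The LAB and WY15 libraries together thus spanned most of the range between WY23 and WY7.

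FET3 had the largest difference of the named genes. It encodes the multicopper oxidase of high-affinity iron uptake and was at 1213 and 739 in WY7 and 344 and 240.2 in WY23. The WY7 libraries were both above the WY23 libraries, by 2.07 for WY7 replicate 1 and 1.36 for replicate 2 on the log2 scale, and the fit gave 1.72 (SE 0.44). DESeq2 called it at an adjusted p of 0.0326. LAB ranged from 744 to 1640 and WY15 from 369 to 540, so the 2 LAB libraries differed from each other by more than 2-fold in the same gene. A window of 300 bases before its start codon is shown because the iron-responsive factors Aft1 and Aft2 bind the letters GCACCC. The window ends 101 bases before the start codon (RefSeq, build R64, chrXIII:388422-388721, plus strand), and capitals mark the 2 matches on either strand, which begin 380 and 250 bases before the start codon.
FET3: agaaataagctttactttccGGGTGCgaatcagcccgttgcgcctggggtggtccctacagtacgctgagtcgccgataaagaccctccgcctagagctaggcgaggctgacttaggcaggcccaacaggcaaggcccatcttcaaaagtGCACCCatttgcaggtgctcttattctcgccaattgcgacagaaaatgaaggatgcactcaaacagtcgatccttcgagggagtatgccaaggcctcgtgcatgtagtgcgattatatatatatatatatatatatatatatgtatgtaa

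Transporters and enzymes made up most of the remaining genes higher in WY7. HXT7, a high-affinity glucose transporter whose sequence is nearly identical to that of HXT6, was at 9892 and 4734 in WY7 and 3008 and 2289 in WY23. OPT1, a transporter of glutathione and short peptides, was at 22433 and 18019.9 in WY7 and 13036 and 12478 in WY23. MPC3, the subunit of the mitochondrial pyruvate carrier used in respiratory growth, was at 6079.5 and 3661 in WY7 and 2461 and 2114 in WY23. In HXT7 and MPC3 the first WY7 library was well above the second, and in OPT1 less so. CWP1, a cell wall mannoprotein, was at 9425 and 4165 in WY7 and 2492 and 2016 in WY23, with log2 differences from the WY23 mean of 2.07 for WY7 replicate 1 and 0.89 for replicate 2. PNS1, a choline transporter-like membrane protein, had a fitted ratio of 1.78, VHS1, a protein kinase, of 1.6, GRE1, a hydrophilin made under stress, of 1.54, and POT1, the peroxisomal thiolase, of 1.58. MMO1 had a ratio of 1.56.

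Several genes lower in WY7 had replicates close together. CRH1, an enzyme that joins chitin to cell wall glucan, was at 4605 and 4634 in WY7 and 6955 and 7290.5 in WY23. The 2 WY7 libraries nearly coincide and the other 8 libraries of the series lie between 5930 and 7553. Its log2 difference was -0.62 (SE 0.12), with an adjusted p of 0.859 in limma and 0.0074 in DESeq2. ANY1, a membrane protein, was at 1768 and 1999 in WY7 and 2664 and 2657 in WY23, a difference of -0.50 (SE 0.09) with an adjusted p of 0.0074 in DESeq2. SRL3 was at 851 and 870.2 in WY7 and 1492 and 1566 in WY23, a difference of -0.83 (SE 0.18) that DESeq2 called at an adjusted p of 0.0326. For CRH1 and SRL3 the WY7 libraries were the lowest of the 10, while ANY1 in LAB was at 2113 and 2038, close to WY7.

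Enzymes of vitamin and amino acid supply were also among them. THI80, which makes thiamine pyrophosphate, was at 1644 and 1927 in WY7 and 2699.6 and 2719.7 in WY23, and DESeq2 called it at an adjusted p of 0.0211. THI20, a kinase that prepares the pyrimidine moiety of thiamine, was at 9182 and 11806 in WY7 and 14399.9 and 15924 in WY23. MCH5, the riboflavin carrier, was at 22318 and 36275 in WY7 and 50938 and 53589.9 in WY23. All 3 had both WY7 libraries below both WY23 libraries, and in THI20 and MCH5 the second WY7 library was nearer to WY23. AQR1, an exporter of acids and amino acids, was at 1052 and 2138 in WY7 and 3752 and 4221 in WY23, and HMT1, which methylates arginine in RNA-binding proteins, was at 4185 and 5055 in WY7 and 7466 and 8068 in WY23. The potassium carrier gene KCH1 had a WY23 to WY7 ratio of 1.51, the subtelomeric gene COS12 of 1.46, and SRL1, a cell wall mannoprotein gene, of 1.53.

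The 11 genes that DESeq2 called were 6 higher and 5 lower in WY7, and 6 of them are named above. Their adjusted p in DESeq2 ran from 0.0074 to 0.0326. The other 5 lay outside the ranking and are named here after their values were seen. YNL194C was at 22482 and 13228 in WY7 and 7376 and 6643 in WY23. RMI1, a subunit of the complex with the helicase Sgs1, was at 3238 and 3155 in WY7 and 2444 and 2444 in WY23, and MTC7 was at 2915 and 2864 in WY7 and 2112 and 2148 in WY23. The WY7 libraries of RMI1 and MTC7 were close to each other and above both WY23 libraries. YKL153W was at 70.4 and 38.3 in WY7 and 6.63 and 9.78 in WY23, and YLR466C-B at 101 and 95.7 in WY7 and 199 and 168 in WY23, both at low level. limma called none of the 11.

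**Figure D3:**
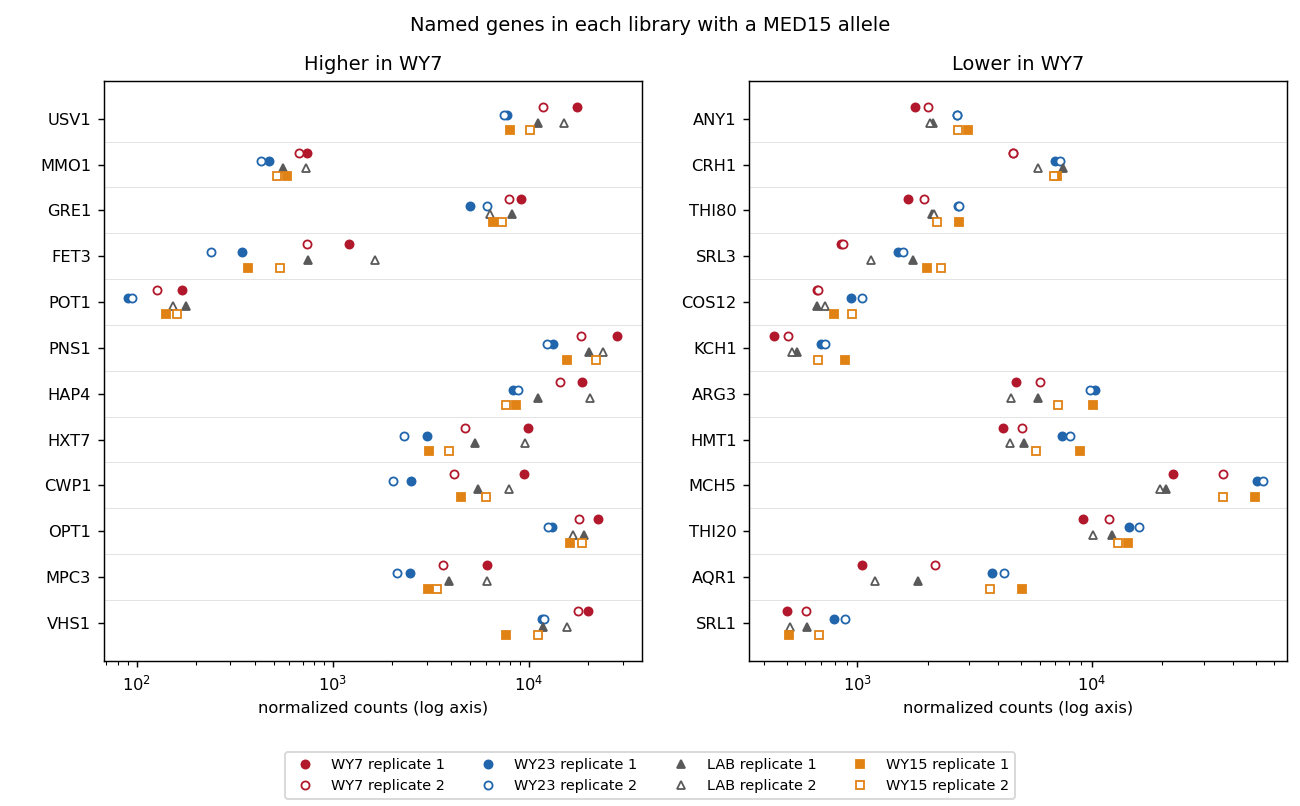
Normalized counts (log axis) of the 24 named genes in each of the 8 libraries with a MED15 allele, filled symbols for replicate 1 and open for replicate 2. WY7 (red) and WY23 (blue) do not overlap, which the choice of genes fixes. In FET3, HXT7, CWP1 and AQR1 the 2 WY7 libraries lie far apart, and LAB (triangles) spans from 744 to 1640 in FET3.

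Lists of genes of known function were then described, by the number of members with separated libraries and the median difference. There were 51 lists with 823 distinct tested genes, limma called no member in any list, and DESeq2 called THI80, FET3 and CRH1. The median of all tested genes was -0.0005. List medians ran from -0.29 to 0.39. In 26 lists the median was within 0.1 of 0. With libraries set to equal sums, members separated higher were 13 of 17 for trehalose and glycogen, 14 of 20 for general stress and 27 of 35 for the respiratory chain. Members separated lower were then 23 of 24 for thiamine and vitamin B6, 22 of 25 for sterol synthesis and 21 of 30 for ribosome biogenesis.

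Storage carbohydrate and stress genes had the highest medians. Of 17 genes of trehalose and glycogen, 14 had both WY7 libraries above both WY23 libraries and 0 the reverse, against 24% and 24.5% of all genes, and the median was 0.39. TPS2, trehalose phosphate phosphatase, was at 31661 and 18150.1 in WY7 and 11480.4 and 10496 in WY23. GSY1, a glycogen synthase, was at 3578 and 915 in WY7 and 711 and 516 in WY23, while the other synthase GSY2 was at 34621 and 26593 in WY7 and 22651 and 23648 in WY23. The first WY7 library was far above the others for TPS2 and GSY1 and less so for GSY2. UGP1, which makes the glucose donor of both pathways, was at 22688 and 18229 in WY7 and 13199 and 13050.5 in WY23, and NTH1, the neutral trehalase that degrades trehalose, was at 21714 and 25229 in WY7 and 21472 and 23683 in WY23, with overlapping libraries. The list median was 0.53 with WY7 replicate 1 alone and 0.25 with replicate 2 alone.

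Msn2 and Msn4 bind the stress element AGGGG. Below, the window of TPS2 from 400 to 101 bases before its start codon is shown, since this gene had the lowest unadjusted p of its list (0.0308). It lies at chrIV:593493-593792 (RefSeq, build R64, plus strand), and capitals mark its 1 match, 308 bases before the start codon.
TPS2: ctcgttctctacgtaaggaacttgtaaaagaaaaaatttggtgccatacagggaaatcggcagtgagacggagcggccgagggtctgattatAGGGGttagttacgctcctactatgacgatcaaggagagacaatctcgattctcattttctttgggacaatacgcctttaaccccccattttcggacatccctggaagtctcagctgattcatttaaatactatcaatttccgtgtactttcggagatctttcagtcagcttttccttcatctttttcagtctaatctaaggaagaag

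In the general stress list, 15 of 20 members were separated with WY7 higher and 1 with WY7 lower, and the median was 0.37. SPI1, a cell wall protein of stationary phase, was at 128781 and 121722 in WY7 and 85651 and 94909 in WY23. YGP1, a secreted glycoprotein of starvation, was at 217725 and 257291 in WY7 and 171813 and 207782 in WY23, and SSA3, a chaperone of the Hsp70 family, at 2983 and 2812 in WY7 and 2170.3 and 2316 in WY23. These had both WY7 libraries above both WY23 libraries, and neither WY7 library was always the higher. HSP26, a small heat shock protein gene, overlapped at 110714 and 141650.0 in WY7 and 94339 and 130949 in WY23. The member that went the other way was MSN2, one of the activators of these genes, at 4125 and 4880.4 in WY7 and 5380.5 and 5512 in WY23, a difference of -0.28, while MSN4 was at 34506 and 24769.6 in WY7 and 23797 and 23967 in WY23. The list median was 0.38 with WY7 replicate 1 alone and 0.36 with replicate 2 alone. The heat shock chaperones had a median of 0.03, with 5 of 20 separated higher and 2 lower, and the sign of that median turned under quantile normalization and without WY23 replicate 1 or WY7 replicate 2.

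Hexose transporters and glycerol genes also had positive medians. HXT5, a transporter of moderate affinity used in slow growth, was at 13300.3 and 7592 in WY7 and 5775 and 5274 in WY23. HXT3, a low-affinity transporter, was at 251673 and 299033 in WY7 and 214612 and 255035 in WY23, and HXT1, also of low affinity, at 81418 and 93879 in WY7 and 75706 and 79958 in WY23. HXT3 libraries overlapped and those of HXT1 did not, with a difference of 0.17. Of 14 transporters tested, 7 were separated higher and 1 lower, and the median was 0.24. It was 0.26 with WY7 replicate 1 alone, 0.31 with replicate 2 alone and 0.39 without WY23 replicate 1. Per library, the median of the list about the mean of each gene was 0.75 in WY7 replicate 1, 0.03 in WY7 replicate 2, and -0.05 and -0.30 in WY23. On that measure replicate 1 of WY7 stood apart from the other 3. STL1, the glycerol importer, was at 495 and 287 in WY7 and 109 and 71.7 in WY23, and GPD1, the first enzyme of glycerol synthesis, at 41767 and 36446 in WY7 and 24418 and 28141 in WY23. The glycerol list had 4 of 11 separated higher and 0 lower, and its median of 0.29 became 0.11 without WY7 replicate 1.

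The glycolytic enzymes had a negative median, with members on both sides of 0. HXK1, a hexokinase made when glucose is scarce, was at 41931 and 24227 in WY7 and 12598 and 15627 in WY23. ENO2, an enolase, was at 17692 and 23001 in WY7 and 24889 and 34301 in WY23, and PFK1, a phosphofructokinase subunit, at 22359.9 and 25843 in WY7 and 26259 and 29040.1 in WY23. HXK1 was separated with WY7 higher and the other 2 with WY7 lower. FBA1, the aldolase, was at 316890.0 and 367472 in WY7 and 331168 and 386202 in WY23 with overlapping libraries. The median of the 17 members was -0.12, and 3 were separated higher and 5 lower. With libraries set to equal sums 8 were lower, and with quantile normalization 7. The median depended on single libraries: it was -0.01 without WY7 replicate 1, -0.24 without WY7 replicate 2, -0.29 without WY23 replicate 1 and 0.02 without WY23 replicate 2.

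Ethanol and acetate enzymes, named in the aim of the series, had differences on both sides of 0, from -0.35 to 1.22 on the log2 scale. PDC1, the main pyruvate decarboxylase, was at 50808 and 56518 in WY7 and 49185 and 54241 in WY23, and ADH1, the main fermentative alcohol dehydrogenase, at 107319 and 119455 in WY7 and 108223 and 139435 in WY23. Libraries of the 2 alleles overlapped for both, with differences of 0.05 (SE 0.15) and -0.12 (SE 0.24). ADH2, which oxidizes ethanol, was at 1109 and 495 in WY7 and 523 and 343 in WY23, a difference of 0.80. ALD6, which makes acetate in the cytosol, was at 59839 and 18838 in WY7 and 19294 and 10698 in WY23, a difference of 1.22. For ADH2 and ALD6 WY7 replicate 1 stood far above the second WY7 library, which lay between the 2 WY23 libraries. The 18 genes had a median of 0.06, which was 0.10 without WY7 replicate 2 and also without WY23 replicate 2. As deposited 6 were separated higher and 2 lower, and with equal sums 3 and 2.

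Most respiratory genes were separated, by small amounts. Of 35 nuclear genes for the respiratory chain and ATP synthase, 27 had both WY7 libraries above both WY23 libraries and 1, ATP20, had them below. The median was 0.21, 0.18 with WY7 replicate 1 alone, 0.19 with replicate 2 alone and 0.12 without WY23 replicate 1. COX4, a cytochrome c oxidase subunit, was at 5291 and 4639 in WY7 and 3758 and 3874 in WY23, QCR9, of the cytochrome bc1 complex, at 8601 and 7879 in WY7 and 6912 and 6619 in WY23, and ATP2, the beta subunit of ATP synthase, at 26976 and 26607 in WY7 and 21197 and 24876 in WY23. In each both WY7 libraries lay above both WY23 libraries. NDE1, the external NADH dehydrogenase, was at 17033 and 7815 in WY7 and 6629 and 5155 in WY23, again with replicate 1 of WY7 apart. COX5B, the subunit form used at low oxygen, overlapped at 18555 and 21749.5 in WY7 and 20208 and 21937 in WY23.

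The tricarboxylic acid cycle had 12 of 16 members separated higher and 0 lower, with a median of 0.20. KGD2, of the 2-oxoglutarate dehydrogenase complex, was at 8963 and 9102 in WY7 and 6671 and 7743 in WY23, and ACO1, aconitase, at 14855 and 14386 in WY7 and 11422 and 12685 in WY23. For peroxisomal beta-oxidation 11 of 18 were separated higher and 0 lower (5 and 0 with equal sums), with a median of 0.23 that became 0.08 without WY7 replicate 1. CTA1, the peroxisomal catalase, was at 925 and 675 in WY7 and 555 and 505 in WY23. The iron list had 9 of 21 separated higher and 2 lower, with a median of 0.20 that became 0.02 without WY7 replicate 1. Beside FET3, ARN1, a siderophore carrier, was at 2196 and 2033 in WY7 and 1791 and 1804 in WY23, and AFT2, an activator of the regulon, at 4409 and 5102 in WY7 and 5606 and 5786 in WY23, the reverse direction.

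Thiamine genes were the list with the lowest median. All 24 genes of thiamine and vitamin B6 had a negative difference, 21 of them with both WY7 libraries below both WY23 libraries, and the median was -0.29. It was -0.37 with WY7 replicate 1 alone and -0.22 with replicate 2 alone. THI4, which makes the thiazole moiety, was at 166709 and 197603 in WY7 and 199421 and 239824 in WY23. THI13, of the pyrimidine moiety, was at 811 and 772 in WY7 and 1191 and 1326 in WY23, and THI7, the thiamine importer, was at 77297 and 83848 in WY7 and 82642 and 86294 in WY23. THI4 and THI13 were separated and THI7 overlapped. Of the 24, 8 are nearly identical to another gene, THI13 included, so their reads cannot be assigned with certainty and they are not independent of each other. About the mean of each gene, the list median was 0.10 and -0.21 in WY15, -0.20 and -0.07 in LAB, and -0.23, -0.12, 0.13 and 0.18 in WY7 and WY23.

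Amino acid synthesis under Gcn4 leaned lower in WY7 by the medians of its lists. ARG3, ornithine carbamoyltransferase, was at 4736 and 6030.0 in WY7 and 10285 and 9829 in WY23, with a log2 difference of -0.91 (SE 0.23) and an unadjusted p of 0.00391. ARG4, argininosuccinate lyase, was at 68014 and 79577 in WY7 and 87266 and 87915 in WY23. Both had separated libraries, and WY7 replicate 1 was the lowest of the 4. Of 10 arginine genes, 0 were separated higher and 6 lower, with a median of -0.23 that became -0.16 without WY7 replicate 1. HIS1, the first enzyme of histidine synthesis, was at 6351 and 9488 in WY7 and 11369 and 11325 in WY23, and HIS4, a further enzyme of the pathway, at 52014 and 66236 in WY7 and 72369 and 79612 in WY23. Of 7 histidine genes 0 were separated higher and 3 lower, and the median of -0.23 became -0.01 without WY7 replicate 1 and -0.45 without replicate 2. Of 8 lysine genes 0 were separated higher and 4 lower, and of 12 aromatic genes 1 higher and 7 lower. Of 11 branched-chain genes 1 was separated higher and 2 lower, against 24% and 24.5% of all genes. Lysine, aromatic and branched-chain synthesis had medians of -0.13, -0.11 and -0.08. Without WY7 replicate 1 these became -0.04, -0.03 and -0.01, and without WY7 replicate 2 -0.21, -0.16 and -0.15. The aromatic median was -0.05 without WY23 replicate 2. GCN4 messenger RNA overlapped, at 39369 and 44192 in WY7 and 44077 and 46711 in WY23.

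The ARG3 window from 400 to 101 bases before the start codon is shown for the Gcn4 letters TGACTC, as the amino acid gene with the lowest unadjusted p. It lies at chrX:268399-268698 (RefSeq, build R64, plus strand), and capitals mark its 1 match, 314 bases before the start codon.
ARG3: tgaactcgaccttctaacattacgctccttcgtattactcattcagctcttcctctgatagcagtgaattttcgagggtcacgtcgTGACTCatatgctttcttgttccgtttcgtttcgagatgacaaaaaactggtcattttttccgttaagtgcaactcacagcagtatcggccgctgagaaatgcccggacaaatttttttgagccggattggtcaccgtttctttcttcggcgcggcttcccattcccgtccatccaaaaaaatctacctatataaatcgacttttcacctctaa

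These 3 motifs were chosen after the values were seen, and were searched on both strands in the same window of 5897 protein-coding genes. TGACTC (reverse GAGTCA) was in 8.6% of all windows, in 9 of 10 arginine genes and in 5 of 7 histidine genes. It was in 3 of 8 lysine, 6 of 12 aromatic and 8 of 11 branched-chain synthesis genes. AGGGG (reverse CCCCT) was in 23.9% of all windows, in 15 of 17 trehalose and glycogen genes and in 14 of 20 general stress genes. In the hexose transporters it was in 4 of 14 (28.6%), and in the respiratory chain in 13 of 35 (37.1%), nearer to the share of all windows. GCACCC (reverse GGGTGC) was in 4.97% of all windows and in 13 of 21 iron genes. Over all tested genes, 33.8% of the 1372 with AGGGG were separated with WY7 higher and 16.3% with WY7 lower, against 20.2% and 28.1% of the 4334 without it, and the medians were 0.04 and -0.02. With TGACTC 22.4% of 499 were higher and 28.9% lower, against 23.6% and 24.9% of the 5207 without it, and the medians were -0.013 and -0.002. With GCACCC 29.6% of 280 were higher and 18.9% lower, against 23.1% and 25.6% of the rest, and the medians were 0.035 and -0.005. A match of letters is a description of the window and not a bound site.

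Sterol genes had 0 of 25 members separated higher and 19 lower, with a median of -0.22 that became -0.36 without WY7 replicate 2. CYB5, the cytochrome that donates electrons to sterol enzymes, was at 659.9 and 956 in WY7 and 1746 and 1461 in WY23. ERG3, a desaturase of ergosterol synthesis, was at 19366 and 28111 in WY7 and 33000.2 and 31409 in WY23, and ERG25, which begins removal of a methyl group, at 20090.0 and 24345 in WY7 and 30039.7 and 25777 in WY23. The WY7 libraries were below WY23 in all 3, replicate 1 by more. Genes of low oxygen leaned the same way: 3 of 30 were separated higher and 16 lower, with a median of -0.18. About the mean of each gene the low-oxygen median was -0.07 and 0.10 in WY7 and 0.14 and 0.13 in WY23. In LAB it was -0.23 and 0.25 and in WY15 0.20 and -0.45, so that fermentations of the same strain differed by more than the 2 alleles did. DAN1, a cell wall gene of anaerobic growth, was at 1264 and 2614 in WY7 and 2802 and 2442 in WY23, and OLE1, the fatty acid desaturase, at 154017 and 216973 in WY7 and 201767 and 211018 in WY23. Both overlapped. The part that the level of the low-oxygen list has in the sterol values was not tested.

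Ribosome biogenesis factors had 22 of 30 members separated lower and 0 higher, with a median of -0.16. NSR1, nucleolin, was at 17339.9 and 24789 in WY7 and 27249.5 and 30877 in WY23, and MAK16, of the large subunit path, at 2719.9 and 2841 in WY7 and 3437 and 3384 in WY23. The 56 small ribosomal subunit protein genes had a median of 0.00, with 11 separated higher and 8 lower (13 and 15 with equal sums), from -0.16 to 0.19. The factors that build ribosomes were thus lower in WY7 in most cases by value, while the proteins of the subunit were spread about 0. About the mean of each gene, the biogenesis median was -0.06 and -0.01 in WY7 and 0.17 and 0.11 in WY23. In WY15 it was 0.33 and -0.24 and in LAB -0.18 and 0.16, so fermentations of those strains differed by more than the 2 alleles did. The subunit protein median was 0.42 and -0.32 in WY15.

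Nitrogen uptake genes had differences on both sides of 0. GAP1, the general amino acid permease, was at 54331 and 44622 in WY7 and 51887 and 41435 in WY23, and MEP2, the ammonium permease and sensor, at 147695 and 153434 in WY7 and 129788 and 118832 in WY23. GAP1 libraries overlapped and MEP2 libraries did not, with a difference of 0.28 (SE 0.19). MUP1, the methionine permease, was at 654 and 609 in WY7 and 686 and 629 in WY23 and overlapped. Of 30 genes under nitrogen catabolite repression, 10 were separated higher and 4 lower, with a median of 0.07 that became 0.11 without WY7 replicate 1. The 20 amino acid permeases had a median of 0.01 and ran from -0.93 to 0.92, the highest being PUT4, the proline permease, at 7827 and 4676 in WY7 and 3905 and 2628 in WY23. The 31 genes of sulfate and methionine had a median of -0.02 that became 0.11 without WY7 replicate 1 and ran from -0.35 to 0.55. HIS3 overlapped, at 11675 and 14572 in WY7 and 14332 and 13783 in WY23.

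**Figure D4:**
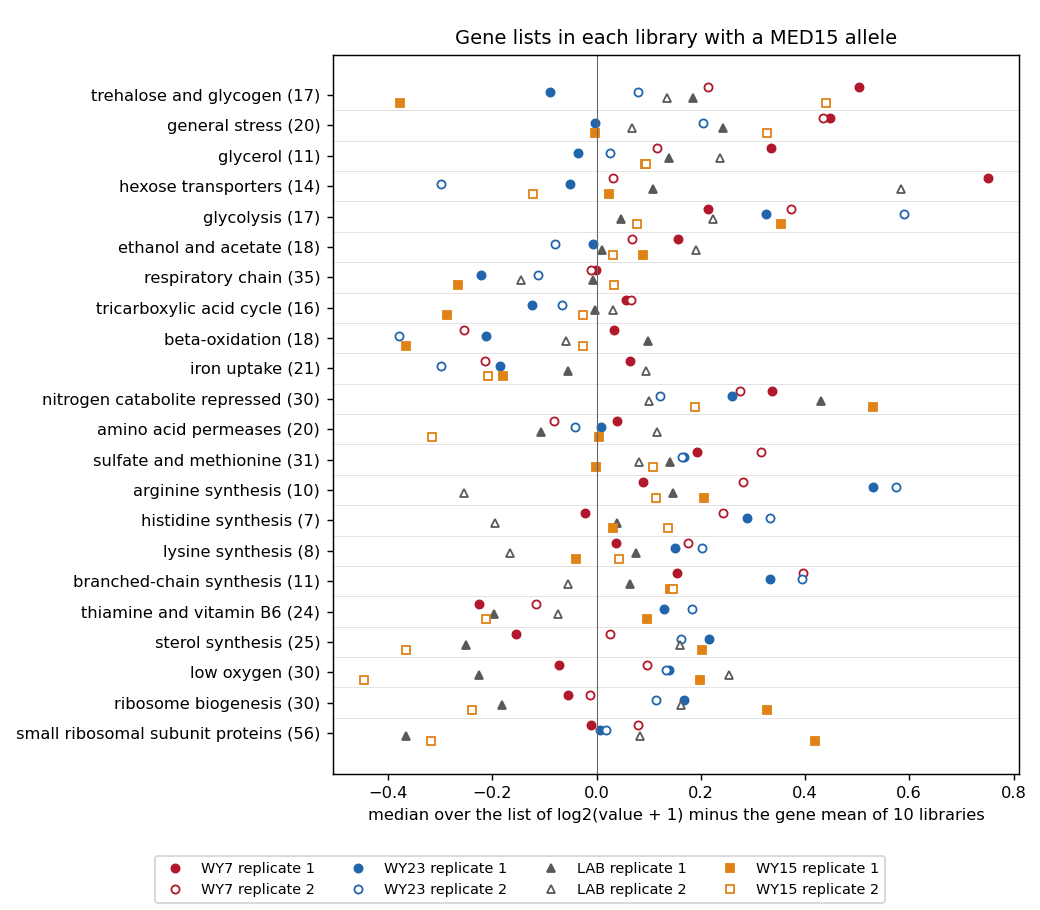
Median over each list (number of tested genes in brackets) of log2(value + 1) minus the mean of the gene over 10 libraries, for each of the 8 libraries with a MED15 allele. Red and blue circles (WY7 and WY23) separate for the stress, respiratory, thiamine and ribosome biogenesis lists, while LAB (triangles) and WY15 (squares) of 1 strain often lie as far apart as the alleles, as for low oxygen (-0.23 and 0.25 in LAB).

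The 2 alleles were then placed beside the response to loss of MED15, taken from the deletion against LAB, which shares no library with them. That comparison had 1147 genes higher (18.9%) and 1072 lower (17.7%) in the deletion at an adjusted p under 0.05 in limma, with the deletion collected at 48 h. The normalized counts summed to 20.9 and 20.8 M in the deletion and to 26 and 27.4 M in LAB. How far the calls of the deletion against LAB depend on the scaling was not tested. The deletion also had URA3 at 3213 and 3214, against 0 in both LAB libraries. In that comparison loss of MED15 cannot be told apart from the difference in URA3 or the later collection. Of the 1072 lower in the deletion, 390 (36.4%) were separated with WY7 above WY23 and 172 (16%) with WY7 below, against 24% and 24.5% of all genes. Of the 1147 higher in the deletion, 218 (19%) were separated with WY7 above and 370 (32.3%) with WY7 below. The median WY7 minus WY23 difference was 0.05 in the first set and -0.03 in the second. With WY7 replicate 1 alone these medians were 0.04 and -0.02, and with replicate 2 alone 0.06 and -0.05. Across the 6065 genes the Pearson correlation of the 2 log2 differences was -0.264 and the Spearman -0.188, given as a description since genes are not independent and all values share 1 annotation and scaling. About the mean of each gene, WY7 replicate 1 correlated at 0.643 with LAB replicate 2 and at 0.488 with WY7 replicate 2. With deletion replicate 1 the correlation was -0.596 and -0.761 for WY7 and -0.687 and -0.663 for WY23. With deletion replicate 2 it was -0.727 and -0.697 for WY7 and -0.647 and -0.534 for WY23.

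Single genes and lists did not all lie on that axis. PNS1, OPT1 and VHS1 had deletion minus LAB differences of -2.69, -2.36 and -2.54, and HXT7 and CWP1 of -2.30 and -2.68, opposite in sign to WY7 minus WY23. Of the 12 named genes higher in WY7, 10 were called lower in the deletion than in LAB and 1, POT1, higher. FET3 was at 1404 and 797 in the deletion, a difference from LAB of -0.06. ARG3 was negative in both contrasts, with -1.73 for the deletion. The general stress list had 14 of 20 members called lower in the deletion and 1 higher, with a median of -0.97. The respiratory chain, with a positive median in WY7 minus WY23, had 22 of 35 called higher in the deletion and 1 lower, with a median of 0.45.

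**Figure D5:**
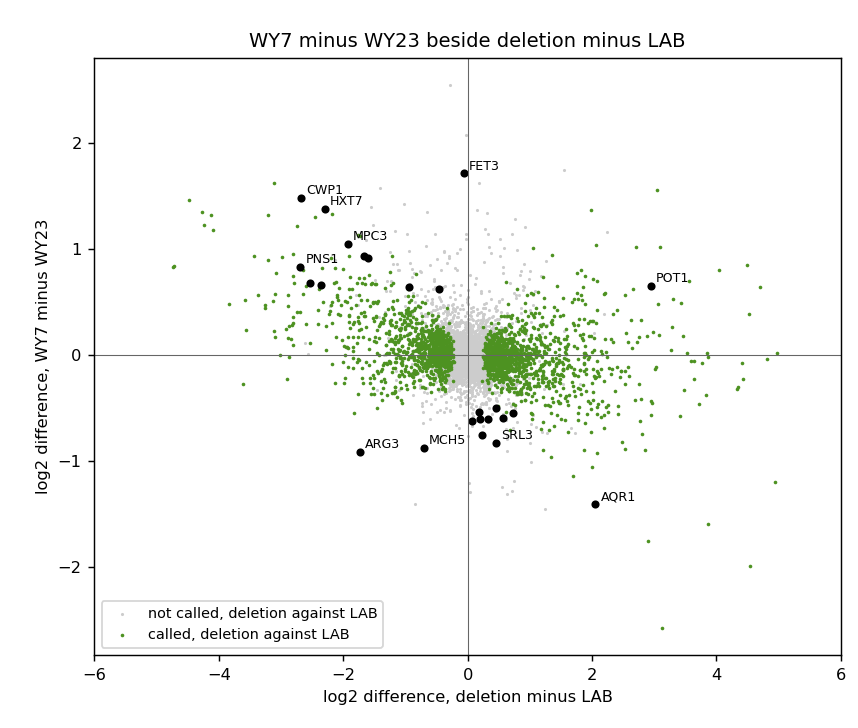
Log2 difference of the deletion minus LAB (horizontal) and of WY7 minus WY23 (vertical) for each tested gene, with genes called in the first comparison in green and the 24 named genes in black, some with their names. URA3 and MED15 lie outside the horizontal range. Points spread from upper left to lower right (Pearson -0.264), and POT1, ARG3 and FET3 lie off that direction.

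The 2 other alleles were set beside each other in the same way. The WY7 minus WY23 difference correlated across the 6065 genes with LAB minus WY15, which shares no library with it, at a Pearson of 0.491 and a Spearman of 0.429. By single libraries the Pearson was 0.55 and 0.40 against WY15 replicate 1, for LAB replicates 2 and 1, and 0.19 and 0.14 against WY15 replicate 2. The correlation was thus lower with WY15 replicate 2, and its part in the list medians was not tested.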

How the data were processed

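Polyadenylated RNA was sequenced from 10 cultures, 2 for each of 5 strains. Trim Galore, Bowtie2, featureCounts and DESeq2 were used with the builds sacCer3 and R64, per the submitters' processing notes. Neither versions nor the use of the strand in counting is stated in the labels, so reads of overlapping genes are uncertain. The authors deposited 1 table of signal, in which each read count of a library has been divided by that library's DESeq2 size factor, as the name and the values of the table give it. Each value was a whole multiple of 1 step per library (100% of values within 1e-06), and the whole reads so recovered, 22.7 to 29.3 M per library, gave depth and the count tests. Counting error is small at this depth: within-strain differences exceeded it with chi-square values, per degree of freedom, of 66.1 for WY7 and 21.8 for WY23.

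Of 6600 identifiers, 5917 matched the R64 annotation by RefSeq, and the 683 others took 0.326 to 0.455% of the reads. Genes that match another at 97% identity over 150 bp or more (BLAST+ 2.17.0, 169 genes) were marked as nearly identical. The 6065 genes with a mean of at least 10 were tested on log2(value + 1) with limma 3.58.1 in R 4.3.3, with 5 group means, 5 residual degrees of freedom, a prior of 3.05, a variance trend, two-sided p-values and Benjamini-Hochberg adjustment over all genes at 0.05. edgeR 4.0.16 and DESeq2 1.42.0 on the recovered reads were alternatives. The fit was also run on simulated data with planted changes and independent noise for each gene. That run does not measure how many real differences were missed here.

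Libraries are called separated where both of WY7 lie above, or both below, both of WY23. Lists come from textbook knowledge. For each list up to 4 members with the smallest unadjusted p and up to 2 abundant others could be named, as could, whatever their values, ALD6, ADH2, ADH1, PDC1, HXT3, GAP1, MEP2, MUP1, GCN4, DAN1, OLE1 and the markers URA3, LEU2, LYS2 and HIS3. The 12 genes named in each direction follow the rule given with them. The comparison, lists and rules were chosen with earlier results of these data known. No list was tested as a set. The alternatives were other scalings, filters, pseudocounts, libraries in the fit, variance moderation, a replicate block and leaving out each library.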

Additional observations from a re-analysis of the deposited data

How the results depend on the processing

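limma called 0 genes between WY7 and WY23 in every alternative run: other scalings, filters and pseudocounts, fits without the deletion or on the 4 libraries alone, other variance moderation, each library left out, and, added after seeing the data, a fit without the 4 LAB and WY15 libraries. edgeR called 0 and DESeq2 11, among them USV1, FET3, ANY1, CRH1, THI80 and SRL3. The cause was not tested. Genes at an unadjusted p under 0.05 numbered 320 in the main comparison, 942 on the 4 libraries alone, 754 without LAB and WY15, and 127 to 516 with 1 library left out. The MED15 difference ran from -0.28 to -0.18 with 1 library left out. Differences of genes with overlapping libraries turned sign with 1 library left out, running from -0.42 to 0.0725 for OLE1, -0.12 to 0.00304 for MUP1, -0.0756 to 0.25 for GAP1, -0.0237 to 0.13 for PDC1, -0.30 to 0.0652 for ADH1 and -0.27 to 0.0521 for HIS3. No other gene taken by the ranking, and none of the remaining genes fixed for naming, turned sign in any alternative. The further list members given as examples or mating-type markers were examined with 1 library left out only. Of these, NTH1, FBA1, COX5B, HSP26 and BAR1 turned sign. NTH1 ran from -0.05 to 0.16, FBA1 from -0.18 to 0.04, COX5B from -0.18 to 0.05, HSP26 from -0.06 to 0.41 and BAR1 from -0.12 to 0.25. Other scalings moved the median of all genes by at most 0.0221 on the log2 scale. Separated genes were 1123 higher and 1725 lower with equal sums and 1362 and 1684 with quantile normalization, against 1458 and 1488 as deposited.

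Whether fermentations with the same replicate number were run together is not given in the sources used here. The within-strain differences of WY7 and WY23 correlated at 0.27 across genes, and those of the other pairs of strains at -0.497 to 0.409. With the replicate block limma again called 0 genes, and the MED15 difference was -0.23 with an adjusted p of 0.909. A lone library was assumed to vary like the others when 1 was left out. With 2 fermentations per allele, limma did not tell differences of the size seen here from the spread between fermentations. The main fit shared that spread over the 5 strains, with median differences within pairs of 0.196 for WY15, 0.177 for LAB, 0.133 for the deletion, 0.122 for WY7 and 0.078 for WY23. On the 4 libraries alone the lowest adjusted p in limma was 0.135, against 0.859 in the main fit.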

Other observations

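Other gene groups held single members that stood apart. AQY1, a water channel, was at 4785 and 1765 in WY7 and 1242 and 894 in WY23, and PMC1, the vacuolar calcium pump, at 5985 and 4841 in WY7 and 3575 and 3557 in WY23. Both had the WY7 libraries above the WY23 libraries, and of 12 genes of sodium and cation transport 6 were separated higher and 0 lower, against 24% and 24.5% of all genes. MTH1, a regulator of the hexose transporter genes, was at 23535 and 14460.1 in WY7 and 11363 and 10202 in WY23, with the WY7 libraries above the WY23 libraries. RGT2, a glucose sensor of the plasma membrane, was at 1799 and 2136 in WY7 and 2607 and 2469.7 in WY23, the reverse order. None passed in limma.

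ADE4, which begins purine synthesis, was at 1215 and 1634 in WY7 and 1892 and 1948 in WY23, with both WY7 libraries below both WY23 libraries. Of 18 genes of purine and one-carbon synthesis 4 were separated higher and 11 lower, with a median of -0.13. The subtelomeric seripauperin genes had a median of -0.20 over 16 tested genes, 1 separated higher and 7 lower, but many are nearly identical to each other. That median was -0.01 with WY7 replicate 1 alone and -0.43 with replicate 2 alone. The 5 flocculin genes had differences from -0.15 to -0.01, and the 18 autophagy genes a median of -0.01, which ran from -0.07 to 0.00 with 1 library left out.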
